A study of Mus musculus with 9 samples.

Results

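The genes described here are the SCAN-domain zinc finger genes of the mouse, taken as the protein-coding genes whose GENCODE M21 symbol is Zkscan or Zscan followed by a number. The rule reads the symbol and sets no threshold on a value. The family as such was selected on the gene counts of these same 9 libraries, with earlier fold changes between all 3 groups known, so the values below are a description, and the adjusted p-values only mark which genes met the calling rule. It found 30 genes among the 35498 genes with a transcript in the files, 11 named Zkscan and 19 named Zscan. Another 3 genes carry such a symbol but are not protein-coding. RNA was measured by stranded mRNA sequencing of cortex, taken whole at E13.5 from mice of the C57Bl/6 strain, in 3 groups of 3 libraries. The DKO group is Smarca1 -/- with 1 Cre allele and is named by the submitters as the double knockout of Smarca5 and Smarca1. The Smarca1 KO group is Smarca1 -/- without Cre, so both of these groups lack Smarca1 by their labels. WT is Smarca1 +/+ without Cre. Neither the promoter that drives Cre nor the deleted exons nor the Smarca5 alleles of the groups without Cre are stated in the sources used here. They also do not say that each library is a separate embryo, so the spread behind each p-value is that of these libraries and could be technical.

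Smarca5 and Smarca1 are the ISWI ATPases, motors that slide and space nucleosomes. A SCAN domain is a short leucine-rich dimerisation module found in vertebrate zinc finger proteins, through which these proteins pair with themselves or with one another, while their C2H2 zinc fingers contact DNA. Many Zkscan proteins also carry a KRAB domain, which in other KRAB zinc finger proteins recruits the corepressor Trim28 and, with it, the histone methyltransferase Setdb1. Zscan4 genes are known from the mouse embryo at zygotic genome activation and from embryonic stem cells, where they act at telomeres. Zscan10 belongs to the pluripotency network of mouse embryonic stem cells.

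The libraries held 27466046 to 46007527 counts summed over genes. Smarca5 averaged 80.2 ± 3.71 CPM in DKO, 234 ± 18.6 CPM in Smarca1 KO and 267 ± 4.40 CPM in WT (CPM, counts scaled to library size by TMM, SD, n = 3 each), a log2 fold change of -1.54 for DKO over Smarca1 KO and -1.73 for DKO over WT. Smarca1 RNA was not called in any comparison (adjusted p 0.378 to 0.709, edgeR's quasi-likelihood test), so its counts do not check the Smarca1 labels, and the groups keep their labelled names. All 10 marker genes of the developing cortex were detected in every library, and their sum was 3479 to 3786 CPM in DKO, 3624 to 4203 CPM in Smarca1 KO and 3827 to 3970 CPM in WT. Summed ventral forebrain markers (6 genes, none at 0) were at 856 to 1052 CPM in DKO, 796 to 868 CPM in Smarca1 KO and 722 to 842 CPM in WT. DKO thus lay below WT in the first sum and above it in the second, without overlap. Summed microglia markers (5 genes, none at 0) lay at 37.8 to 47.9 CPM in DKO, 27.4 to 33.1 CPM in Smarca1 KO and 28.1 to 29.4 CPM in WT. Summed meninges markers (6 genes, none at 0) spanned 230 to 627 CPM in DKO, 237 to 573 CPM in Smarca1 KO and 409 to 497 CPM in WT. A set of 4 Y-linked genes summed to 238 to 247 CPM in DKO, 253 to 267 CPM in Smarca1 KO and 258 to 266 CPM in WT. The part of these shifts in the results below was not tested, other than by the alternative fits named there.

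The embryonic cortex expressed 20 of the 30 members above the filter on low counts. The other 10 were not tested. All 8 Zscan4 genes (Zscan4b, Zscan4c, Zscan4d, Zscan4e, Zscan4f, Zscan4-ps1, Zscan4-ps2 and Zscan4-ps3, which the annotation lists as protein-coding) had 0 counts in each of the 9 libraries. A count of 0 allows up to 3 counts, or 0.0653 to 0.109 CPM in a library, by counting error alone. They lie together at chr7:10900740-11614112 (GRCm38) and share 63.8% to 95.2% of their 31-base words with other genes, so reads could not have been assigned firmly to one of them. Zscan10 had 1 to 5 counts per library and Zscan5b 0 to 5. The silence of the Zscan4 genes and the near silence of Zscan10 held in DKO as in WT at this depth.

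Per unit of transcript length, the highest members were Zkscan3, Zscan21 and Zscan2. Zkscan3, which in human cells represses autophagy and lysosome genes, had 75.1 ± 2.56 TPM in DKO, 83.0 ± 0.627 TPM in Smarca1 KO and 85.7 ± 3.57 TPM in WT (TPM, Salmon's length-scaled level, SD, n = 3 each). Zscan21, also called Zipro1 and studied in granule cell precursors of the mouse cerebellum, had 72.9 ± 1.06 TPM in DKO, 73.0 ± 2.34 TPM in Smarca1 KO and 66.4 ± 1.21 TPM in WT. Zscan2 followed at 38.4 ± 2.89 TPM in DKO, 36.2 ± 6.48 TPM in Smarca1 KO and 33.3 ± 0.361 TPM in WT. Zkscan16 was the lowest tested member, with a mean of 1.67 TPM over the 9 libraries. The 20 tested members together took 752 to 765 CPM in DKO, 796 to 843 CPM in Smarca1 KO and 826 to 842 CPM in WT. The DKO libraries were the lowest 3 of the 9 for this sum.

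**Figure D1:**
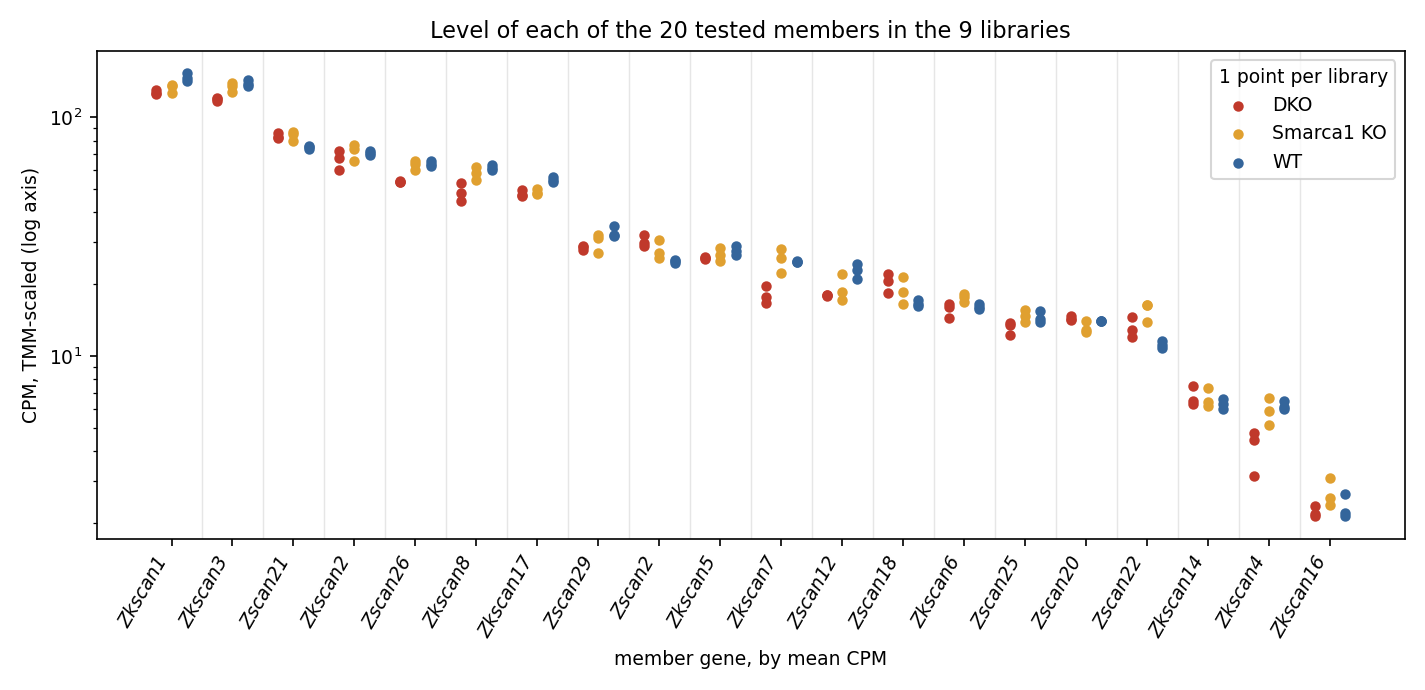
Level of each tested member in CPM (TMM-scaled, log axis), 1 point per library, with DKO, Smarca1 KO and WT from left to right within a gene and genes ordered by their mean. Within a gene the 9 points lie close together beside the spread between genes, which runs from Zkscan1 and Zkscan3 above 100 CPM to Zkscan16 near 2 CPM.

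The comparison of DKO with WT held most of the calls. Of the 20 tested members, 8 fell in DKO relative to WT and 2 rose, at an adjusted p under 0.05 in edgeR's quasi-likelihood test over 15773 genes. Over all genes tested, 6.35% were called lower and 5.61% higher in that comparison. The members' median log2 fold change was -0.12, beside 0.008 over all genes. DKO relative to Smarca1 KO had 2 members lower and none higher (6 members at an unadjusted p under 0.05, and 4 lower and none higher in DESeq2), where 2.66% of all genes were called lower and 1.73% higher. The median there was -0.10, beside 0.004 over all genes. Smarca1 KO relative to WT had no member called in edgeR (5 at an unadjusted p under 0.05), where 0.197% of all genes were called lower and 0.139% higher. DESeq2 called 1 member higher and 1 lower there. Of all 15773 genes, 2905 had an unadjusted p under 0.05 in DKO over Smarca1 KO and 2978 in Smarca1 KO over WT. The members' median for Smarca1 KO over WT was 0.001, beside 0.010. The DKO comparisons share the DKO libraries, so their calls are not independent of each other.

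Groups that did not overlap were more frequent than calls. In DKO, 11 of the 20 members had all 3 libraries below all 3 WT libraries, a pattern that 20.4% of all genes showed, and 5 had them all above, as 20.9% of genes did. Against Smarca1 KO, 8 members were lower without overlap in DKO and 1 higher, where 10.7% and 9.72% of all genes were. Smarca1 KO lay below WT without overlap for 2 members and above it for 4, where 13.6% and 12.5% of all genes did. The family was proposed from values of these libraries, so nothing is read from these shares about the family as a whole.

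The calls lay close to the threshold and many depended on single libraries. Members called lower in DKO relative to WT numbered 8 with all 9 libraries. That count was 5 without DKO replicate 1, 3 without DKO replicate 2, 2 without DKO replicate 3, 1 without WT replicate 1, 2 without WT replicate 2 and 2 without WT replicate 3. Over all genes the same 6 fits called 281 to 1015 genes lower, beside 1002 with all libraries. The 2 rises relative to WT became 1 without DKO replicate 1 and 0 without any one of DKO replicates 2 and 3 or WT replicates 1, 2 and 3. Over all genes, these fits called 1114 genes higher without DKO replicate 1 and 169 to 294 in the others, beside 885 with all libraries. The count lower in DKO relative to Smarca1 KO was 0 without any one of DKO replicate 2, DKO replicate 3 and Smarca1 KO replicate 2, 1 without Smarca1 KO replicate 1 and 4 without Smarca1 KO replicate 3. Over all genes, the fits with a count of 0 called 183 to 227 genes lower, beside 419 with all libraries. Those with 1 and 4 called 342 and 451. With the mean log2 level of the Y-linked genes as a covariate, no member was called in either DKO comparison. Over all genes, 7 were then lower and 4 higher relative to Smarca1 KO, and 3 lower and 3 higher relative to WT. The groups explained a share of 0.771 of that covariate's variance, so its effect and the genotype cannot be told apart.

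**Figure D2:**
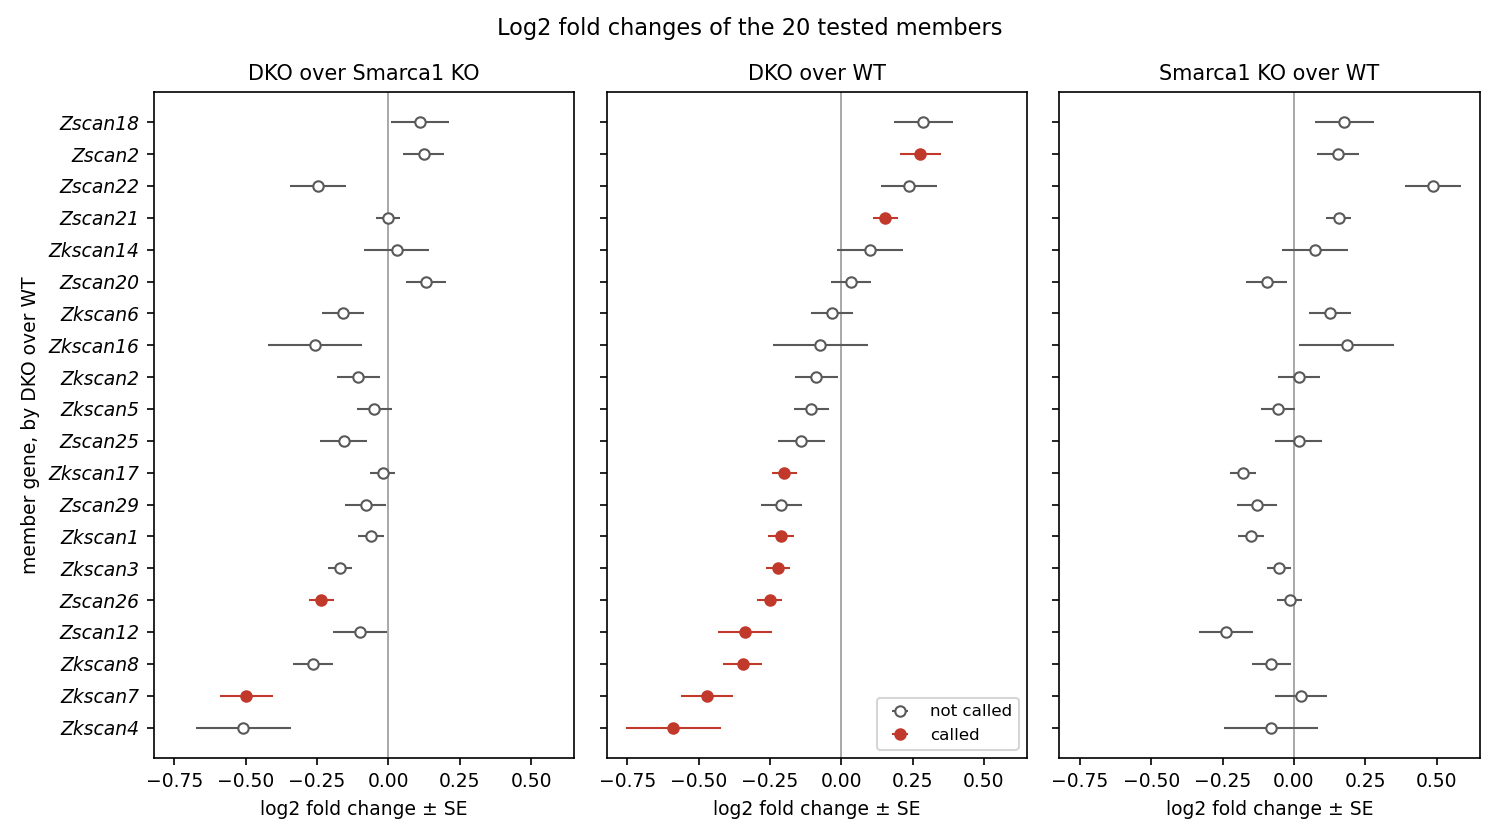
Log2 fold change of each tested member with its standard error (bars) for DKO over Smarca1 KO, DKO over WT and Smarca1 KO over WT, genes ordered by DKO over WT. Filled points passed an adjusted p under 0.05: 2 members lower in the first panel, 8 lower and 2 higher in the second, and none in the third.

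The members with Zkscan symbols and those with Zscan symbols split unevenly between the directions. Of the 11 Zkscan genes, all of them tested, 6 fell in DKO relative to WT and none rose (6.35% and 5.61% of all genes), and 10 of 11 had a negative fold change. Of the 9 tested Zscan genes, 2 fell and 2 rose, and 4 of 9 had a negative fold change. Relative to Smarca1 KO, 10 of the 11 Zkscan genes and 6 of the 9 Zscan genes were negative, with 1 call in each (2.66% of all genes were called lower). Over all 15773 genes, 7620 were negative relative to WT and 7705 relative to Smarca1 KO. The 2 Zscan falls relative to WT (Zscan12 and Zscan26) and those of Zkscan3, Zkscan4 and Zkscan8 lie in the chromosome 13 run described next. The name groups are thus not separate from that run. The difference between the subfamilies was not tested.

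Of the 8 falls, 5 were on chromosome 13, a grouping chosen after the calls were seen. All 5 members there, Zscan12, Zkscan3, Zscan26, Zkscan4 and Zkscan8, fell in DKO relative to WT, where 6.35% of all genes were called lower. They sit within 168.3 kb at chr13:21362820-21531120 (GRCm38), in a run of SCAN genes. Summed over the 5 genes, the level was 240.8 to 249 CPM in DKO, 268 to 294 CPM in Smarca1 KO and 291 to 297 CPM in WT. The DKO mean was 86.8% of the Smarca1 KO mean and 83.0% of the WT mean, and the DKO libraries overlapped neither group. Smarca1 KO averaged 95.7% of WT and overlapped it. The sum adds no evidence beyond the single genes. Each of the 5 lay below WT in DKO without overlap, and all but Zscan12 lay below Smarca1 KO so. Zkscan3, the largest part of the sum, averaged 119 CPM in DKO.

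The promoters of 4 of these 5 genes are in the RefSeq table used (GRCm38.p6). They are shown, as the 150 bases before the RefSeq start, because the genes moved together and because a 7-base word of ETS factors, CCGGAAG or its reverse complement CTTCCGG, recurs in them. Capitals mark that word.
Zscan12, chr13:21362670-21362819, plus strand: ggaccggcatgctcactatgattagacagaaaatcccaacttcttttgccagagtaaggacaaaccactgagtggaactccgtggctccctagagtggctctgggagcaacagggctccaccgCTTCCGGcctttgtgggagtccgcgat
Zscan26, chr13:21453728-21453877, minus strand: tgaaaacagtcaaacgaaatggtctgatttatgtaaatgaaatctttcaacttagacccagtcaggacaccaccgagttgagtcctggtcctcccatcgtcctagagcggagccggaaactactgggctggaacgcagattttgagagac
Zkscan4, chr13:21478699-21478848, plus strand: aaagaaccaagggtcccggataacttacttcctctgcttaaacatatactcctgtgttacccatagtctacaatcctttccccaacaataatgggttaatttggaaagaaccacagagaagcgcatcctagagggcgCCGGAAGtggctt
Zkscan8, chr13:21531115-21531264, minus strand: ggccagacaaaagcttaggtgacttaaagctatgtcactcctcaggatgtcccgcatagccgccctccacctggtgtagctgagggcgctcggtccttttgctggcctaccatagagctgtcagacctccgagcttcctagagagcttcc

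Counted from the start, the word lay at positions -27 to -21 of Zscan12 and -13 to -7 of Zkscan4, and Zscan12 held it once more just after the start. In Zkscan8 it occurred on both strands across the start itself, so that only its first letters end the printed sequence. The Zscan26 window did not hold these letters. Over the 300-base windows (250 bases before to 50 after the start), 7 of the 15 tested members with a window held the word, 46.7%, against 8.9% of all 32851 windows in the table and 15.1% of the 14930 windows of genes tested here. Besides Zscan12, Zkscan4 and Zkscan8, these were Zkscan1 (called lower in DKO over WT), Zscan21 (called higher), and Zscan25 and Zscan29 (not called). Zscan26 and Zkscan17 (called lower) and Zscan2 (called higher) did not hold it. The members' windows held a median of 13 CG dinucleotides, against 7 over all windows, so base composition differs as well. A GC box (GGGCGG) was in 5 of 15 (35.7% of all windows), a CCAAT box (CCAAT) in 5 of 15 (37.4%), a cAMP response element (TGACGTCA) in 2 of 15 (1.8%), an E-box (CACGTG) in 1 of 15 (7.2%) and the letters GGNGGCAG, part of the CTCF consensus, in none of 15 (12.6%). These are matches of letters on either strand. The members were reduced to 1 window per gene, while the shares and the median over all windows were not.

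Zscan26 gave the smallest adjusted p of the cluster. It had 53.6, 53.8 and 53.9 CPM in DKO, 64.0, 65.6 and 60.3 CPM in Smarca1 KO, against 62.4, 65.7 and 63.8 CPM in WT. The 3 DKO libraries were almost equal and lay below the other 6, which overlapped each other. The log2 fold change was -0.24 ± 0.04 relative to Smarca1 KO (SE, edgeR adjusted p = 0.0178) and -0.25 ± 0.04 relative to WT (adjusted p = 0.00977). The call relative to WT held when any one library was left out. The call relative to Smarca1 KO was lost without any one of DKO replicates 1, 2 and 3 and Smarca1 KO replicates 1 and 2, with adjusted p between 0.0523 and 0.0715, and without DKO replicate 1 and Smarca1 KO replicate 1 together, the libraries highest in meninges markers.

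Zkscan3 and Zkscan4 lie on opposite strands of the same cluster and encode the most alike pair of tested members, with 78.6% of aligned residues identical, where no other tested pair passed 52.6%. Zkscan3 had 120.9, 116.6 and 119.7 CPM in DKO, 135, 139 and 128 CPM in Smarca1 KO, against 143, 137 and 136 CPM in WT. Its DKO libraries lay below all others, by a log2 fold change of -0.22 ± 0.04 relative to WT (edgeR adjusted p = 0.0133) and -0.17 ± 0.04 relative to Smarca1 KO, which was not called (adjusted p = 0.0543). The call relative to WT was lost without DKO replicate 2 or without WT replicate 1 (adjusted p 0.0506 and 0.0602), and a call relative to Smarca1 KO appeared without Smarca1 KO replicate 3.
Zkscan4, a much weaker gene, had 3.17, 4.47 and 4.77 CPM in DKO, 5.14, 5.90 and 6.66 CPM in Smarca1 KO, against 6.53, 6.13 and 6.01 CPM in WT. DKO again lay below both groups without overlap. Its log2 fold change was -0.59 ± 0.17 relative to WT (adjusted p = 0.0481) and -0.51 ± 0.17 relative to Smarca1 KO, not called (adjusted p = 0.135). Of the 31-base words of Zkscan4, 16.9% occur in other genes, first of all Zkscan3, so part of its counts could belong to that neighbour. The call was lost without any one of DKO replicates 1, 2 and 3, WT replicates 1, 2 and 3 and Smarca1 KO replicate 2 (adjusted p 0.0556 to 0.145), and also with no filter on low counts or with effective-length offsets.

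Zkscan8 had 53.1, 48.2 and 44.4 CPM in DKO, 58.4, 61.8 and 54.8 CPM in Smarca1 KO, against 60.4, 61.7 and 63.0 CPM in WT. The highest DKO library lay just under the lowest Smarca1 KO library. The log2 fold change was -0.34 ± 0.07 relative to WT (edgeR adjusted p = 0.0154) and -0.26 ± 0.07 relative to Smarca1 KO, not called (adjusted p = 0.0644), though it was called without DKO replicate 1 or Smarca1 KO replicate 3. Leaving out any one of DKO replicates 2 and 3 and WT replicates 1, 2 and 3 ended the call relative to WT (adjusted p 0.0518 to 0.0624).
Zscan12 had 17.9, 18.1 and 17.98 CPM in DKO, 17.2, 22.1 and 18.5 CPM in Smarca1 KO, against 24.2, 21.03 and 22.9 CPM in WT. DKO overlapped Smarca1 KO here and lay below WT. Its log2 fold change was -0.34 ± 0.09 relative to WT (edgeR adjusted p = 0.0474), -0.10 ± 0.09 relative to Smarca1 KO and -0.24 ± 0.09 for Smarca1 KO over WT (adjusted p = 0.229), the last 2 not called. The call was lost without any one of the 6 DKO and WT libraries (adjusted p 0.0762 to 0.153), and with the replicate block.

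The same stretch holds genes that are no members. Pgbd1, which joins a SCAN domain to a domesticated piggyBac transposase, lies between Zkscan3 and Zscan26 at chr13:21421275-21441058. It had 6.94, 5.66 and 4.64 CPM in DKO, 9.69, 10.5 and 9.43 CPM in Smarca1 KO, against 8.58, 9.95 and 7.87 CPM in WT. Pgbd1 was lower in DKO by a log2 fold change of -0.78 ± 0.15 relative to Smarca1 KO (edgeR adjusted p = 0.0216) and -0.62 ± 0.15 relative to WT (adjusted p = 0.0310). The first call was lost without DKO replicate 2, DKO replicate 3 or Smarca1 KO replicate 2 (adjusted p 0.0644 to 0.0766), and with only the 2 groups compared. The second was lost without any one of DKO replicates 2 and 3 and WT replicates 1, 2 and 3 (adjusted p 0.0627 to 0.112). With the Y-linked covariate both were lost. Nkapl, a gene of mouse spermatogenesis, was low, at 1.38, 1.36 and 1.20 CPM in DKO, 1.30, 1.06 and 2.11 CPM in Smarca1 KO, against 1.72, 1.56 and 1.34 CPM in WT, and was not called. The only other protein-coding gene tested within 100 kb of these members, AK157302, had 0 counts in the 3 DKO libraries, 11, 14 and 0 counts in Smarca1 KO and 33, 4 and 16 counts in WT. It was called lower in DKO relative to WT (edgeR adjusted p = 0.0415), and whether this call holds in the alternative fits was not examined.

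**Figure D3:**
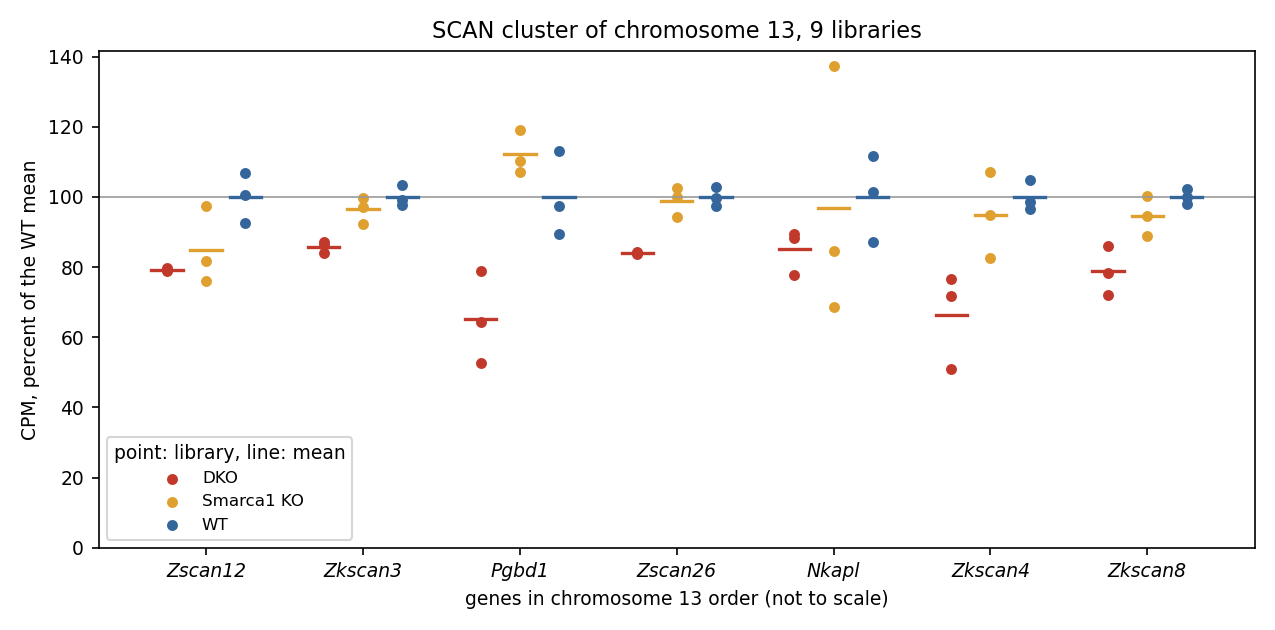
CPM of the 5 chromosome 13 members and of Pgbd1 and Nkapl as a percentage of the gene's WT mean, in gene order along the chromosome, with DKO, Smarca1 KO and WT from left to right (points, libraries; short lines, group means). DKO points of the 5 members and of Pgbd1 all lie below their WT points, while for Nkapl a DKO point and a WT point overlap in range.

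Outside chromosome 13, the largest fall was that of Zkscan7 at chr9:122885685-122898618. It had 19.6, 17.7 and 16.7 CPM in DKO, 25.7, 28.2 and 22.2 CPM in Smarca1 KO, against 25.1, 24.9 and 24.8 CPM in WT. All DKO libraries were below the other 6. The log2 fold change was -0.50 ± 0.09 relative to Smarca1 KO (edgeR adjusted p = 0.0174) and -0.47 ± 0.09 relative to WT (adjusted p = 0.0145), and 0.03 ± 0.09 for Smarca1 KO over WT. The call relative to Smarca1 KO was lost without DKO replicate 2, DKO replicate 3 or Smarca1 KO replicate 2 (adjusted p 0.0525 to 0.0735), and that relative to WT without any one of DKO replicates 2 and 3 and WT replicates 1, 2 and 3 (adjusted p 0.0509 to 0.0604). The annotation places a transcribed pseudogene of the same symbol just downstream on the same strand, at chr9:122903246-122914154. This pseudogene, no member, had 22.2, 23.0 and 22.6 CPM in DKO, 25.3, 27.9 and 29.7 CPM in Smarca1 KO, against 27.03, 26.99 and 27.3 CPM in WT. It fell too, by -0.29 ± 0.06 relative to Smarca1 KO (edgeR adjusted p = 0.0378) and -0.26 ± 0.06 relative to WT (adjusted p = 0.0300). Whether the pseudogene's calls hold in the alternative fits was not examined. Zkscan7 shares 1.56% and the pseudogene 2.06% of 31-base words with other genes, and neither is among the genes that share most with the other.

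In Zkscan1 and Zkscan17, Smarca1 KO lay between DKO and WT or level with DKO. Zkscan1, the strongest member beside Zkscan3 in CPM, had 125, 130.0 and 127 CPM in DKO, 126, 135 and 137 CPM in Smarca1 KO, against 153, 146 and 143 CPM in WT. Relative to WT, Zkscan1 fell in DKO by a log2 fold change of -0.21 ± 0.05 (edgeR adjusted p = 0.0201), and Smarca1 KO was also below WT without overlap, by -0.15 ± 0.05, not called (adjusted p = 0.155). Zkscan17, known in mouse as Nizp1, a partner of the histone methyltransferase Nsd1, had 46.7, 49.8 and 47.2 CPM in DKO, 48.2, 49.996 and 47.6 CPM in Smarca1 KO, against 53.7, 56.4 and 54.8 CPM in WT. Its DKO and Smarca1 KO libraries overlapped, and both groups lay below WT, by -0.20 ± 0.04 in DKO (adjusted p = 0.0231) and -0.18 ± 0.04 in Smarca1 KO, not called in edgeR (adjusted p = 0.126) but called in DESeq2. The DKO call was lost for Zkscan1 without any one of DKO replicate 3 and WT replicates 1, 2 and 3 (adjusted p 0.0501 to 0.0829). For Zkscan17 it was lost without any one of DKO replicates 1 and 3 and WT replicates 1, 2 and 3 (adjusted p 0.0501 to 0.0921) and with effective-length offsets.

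Zscan2 and Zscan21 rose in DKO relative to WT. Zscan2, which with 14 matches of a zinc finger pattern has the most among the tested members, had 29.8, 28.8 and 32.3 CPM in DKO, 25.8, 27.2 and 30.6 CPM in Smarca1 KO, against 25.1, 24.6 and 25.4 CPM in WT. Smarca1 KO overlapped DKO and lay above WT. The log2 fold change of DKO over WT was 0.28 ± 0.07 (edgeR adjusted p = 0.0376), and that of Smarca1 KO over WT was 0.15 ± 0.07, not called (adjusted p = 0.289). Zscan21 had 85.9, 82.3 and 82.4 CPM in DKO, 79.3, 86.5 and 85.3 CPM in Smarca1 KO, against 75.2, 76.2 and 73.8 CPM in WT. Both groups labelled Smarca1 -/- lay above WT without overlap, by 0.15 ± 0.04 in DKO (adjusted p = 0.0477) and 0.16 ± 0.04 in Smarca1 KO, not called (adjusted p = 0.141). Both calls were lost with effective-length offsets, and that of Zscan21 also with RLE size factors, the replicate block or no filter on low counts. The 0.15 of Zscan2 in Smarca1 KO over WT was 0.08 without Smarca1 KO replicate 3. Leaving out any one of DKO replicates 2 and 3 and WT replicates 1, 2 and 3 ended the call of Zscan2 (adjusted p 0.0694 to 0.137). Leaving out any one of the 6 DKO and WT libraries ended that of Zscan21 (adjusted p 0.0965 to 0.163).

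Under the small change in the Zscan21 total lay a much larger one among its transcripts. The annotation gives the gene 7 transcripts at chr5:138116903-138134265 (plus strand), of which 5 share 1 coding sequence. They differ in a non-coding second exon of 85 bases at chr5:138117836-138117920, which 4 of the 7 contain and which lies in the 5′ UTR of Zscan21-201 and Zscan21-205. The share of the gene's reads that Salmon gave to the 4 transcripts with this exon was 52.5%, 50.5% and 47.7% in DKO, 49.0%, 44.5% and 52.8% in Smarca1 KO and 16.2%, 17.97% and 10.5% in WT. DKO and Smarca1 KO overlapped fully, at means of 50.2% ± 2.39 and 48.8% ± 4.15, and both stood apart from WT, at 14.9% ± 3.89 (SD, n = 3 each). CPM of transcripts were scaled to library size without TMM. Zscan21-201, with the exon, had 19.3, 18.04 and 12.8 CPM in DKO, 19.3, 13.4 and 16.5 CPM in Smarca1 KO, against 4.15, 4.47 and 3.28 CPM in WT. Zscan21-204, without it, had 26.15, 30.1 and 25.7 CPM in DKO, 24.4, 29.4 and 27.2 CPM in Smarca1 KO, against 47.4, 39.5 and 46.05 CPM in WT.

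A fit of all 50919 transcripts that passed the filter, run after these values were seen, called 3 of the 64 tested transcripts of members in DKO over WT, where 0.33% of all transcripts were called in either direction. All 3 were of Zscan21. Zscan21-201 was 4.19-fold higher (edgeR adjusted p = 0.0165), Zscan21-205 was 3.56-fold higher (adjusted p = 0.0419) and Zscan21-204 had a log2 fold change of -0.70 ± 0.11 (adjusted p = 0.0487). Zscan21-201 was the 1 member transcript called in Smarca1 KO over WT, 4.11-fold higher (adjusted p = 0.0326), where 0.0295% of all transcripts were called. None was called in DKO over Smarca1 KO (11 at an unadjusted p under 0.05), where 0.132% of all transcripts were. Of all 50919 transcripts, 4227 were at an unadjusted p under 0.05 in that comparison. The spread does not include Salmon's uncertainty in dividing reads among transcripts of a gene, so these p-values are too small by an unknown amount. With 1 library left out, the fold change of Zscan21-201 in DKO over WT stayed between 1.94 and 2.23 on the log2 scale. That call was lost without DKO replicate 2 or any WT replicate (adjusted p 0.0631 to 0.0794), and the call in Smarca1 KO over WT was lost without any one library other than DKO replicate 3 (adjusted p 0.0753 to 0.120). The calls of Zscan21-205 and Zscan21-204 were lost in 8 and 9 of the 9 such fits.

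The 150 bases before the RefSeq start of Zscan21 are shown because the transcripts with the exon (Zscan21-201 and Zscan21-205, from bases 138116903 and 138116916) and Zscan21-204 without it (from base 138116937) begin close together at its end.
Zscan21, chr5:138116755-138116904, plus strand: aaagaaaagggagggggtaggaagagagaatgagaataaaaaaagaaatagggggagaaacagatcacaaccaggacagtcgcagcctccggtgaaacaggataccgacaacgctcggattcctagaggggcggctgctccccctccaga
The ETS word was not in these letters but lay at positions 20 to 26 counted from the start. Zkscan1 ends 9081 bases upstream of Zscan21 on the same strand. One of its transcripts, Zkscan1-203, took 0.571%, 1.08% and 0.755% of the gene's reads in DKO, 1.63%, 1.13% and 2.19% in Smarca1 KO and 3.26%, 3.08% and 2.505% in WT. Its 3 groups did not overlap, and its fold change in DKO over WT was -2.08 ± 0.34 on the log2 scale, not called (adjusted p = 0.0595).

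**Figure D4:**
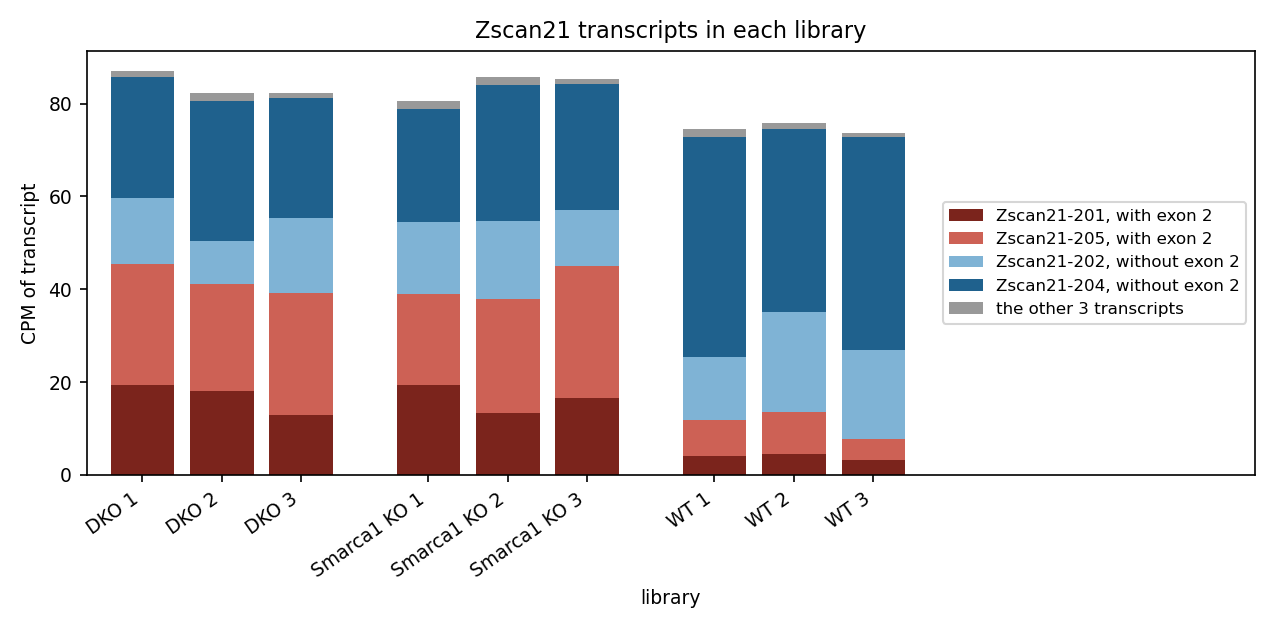
CPM (not TMM-scaled) of the Zscan21 transcripts stacked for each library, with DKO, Smarca1 KO and WT from left to right. Exon 2 means the 85-base second exon of Zscan21-201. The red parts (Zscan21-201 and Zscan21-205, with the exon) are about as tall as the rest in each DKO and Smarca1 KO bar and much shorter than the rest in each WT bar.

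Among the 10 tested members without a call, Zscan22, Zscan18 and Zkscan16 had the largest fold changes. Zscan22 had 12.03, 14.6 and 12.9 CPM in DKO, 16.5, 16.3 and 13.98 CPM in Smarca1 KO, against 10.8, 11.5 and 11.1 CPM in WT. It had the largest fold change of Smarca1 KO over WT among the 20 tested members, 0.49 ± 0.10 on the log2 scale, not called (edgeR adjusted p = 0.0801), and its DKO libraries lay above WT and overlapped Smarca1 KO. DESeq2 and the fit with the Y-linked covariate called it. Zscan18, which has 1 match of the zinc finger pattern, had 18.4, 22.1 and 20.7 CPM in DKO, 18.6, 16.5 and 21.5 CPM in Smarca1 KO, against 16.6, 16.2 and 17.2 CPM in WT, a log2 fold change of 0.29 ± 0.10 for DKO over WT (edgeR adjusted p = 0.0913). It was called without Smarca1 KO replicate 3. Zkscan16 had 2.37, 2.14 and 2.20 CPM in DKO, 2.55, 2.39 and 3.10 CPM in Smarca1 KO, against 2.66, 2.22 and 2.16 CPM in WT, and its -0.26 ± 0.17 for DKO over Smarca1 KO was not called (adjusted p = 0.464) and was -0.15 without Smarca1 KO replicate 3. The remaining 7 (Zkscan2, Zkscan5, Zkscan6, Zkscan14, Zscan20, Zscan25 and Zscan29) had log2 fold changes of at most 0.21 in size in the DKO comparisons. With effective-length offsets, the fold change of Zscan20 was 0.44 in place of 0.13 in DKO over Smarca1 KO and -0.37 in place of -0.10 in Smarca1 KO over WT, not called either way. Zscan29 (-0.21 in DKO over WT, adjusted p = 0.0815) was called with only the 2 groups compared and without Smarca1 KO replicate 3. Standard errors of the tested members ran from 0.04 for Zkscan3 to 0.17 for Zkscan4 on the log2 scale, and fold changes several times their standard error were left without a call, as in Zscan22 and Zkscan3.

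By their translated coding sequences in the annotation, the tested members encode proteins of 466 to 1030 residues with 1 to 14 matches of a C2H2 finger pattern (median 7). Among the falls, the 5 chromosome 13 members had 7 to 9 matches each, Zkscan7 had 10, Zkscan1 6 and Zkscan17 4. Among the rises, Zscan21 had 6 and Zscan2 14. Whether direction goes with the number of fingers was not tested. The Zscan4 proteins had 4 matches each. Within 100 kb of a called member, 23 other protein-coding genes were tested in DKO over WT, of which 3 were called lower and none higher (6.35% and 5.61% of all genes). Near tested members without a call, 25 were tested, with 2 lower and none higher, where 6.35% and 5.61% of all genes were. Neighbours of the 10 members that were not tested are not in these counts, and among those of Zscan10 the gene Hcfc1r1 was called higher in DKO over WT (log2 fold change 0.67). The 3 lower ones near called members were Pgbd1, AK157302 and Zfp867.

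SCAN genes under other symbols and the partners of KRAB domains were read from lists chosen with earlier results of these data known. Of 16 SCAN genes with other symbols, all tested, 3 fell in DKO relative to Smarca1 KO (2.66% of all genes) and 3 relative to WT (6.35% of all genes), and none rose. None of them was called between Smarca1 KO and WT (1 at an unadjusted p under 0.05, beside 2978 of all 15773 genes). Pgbd1, already described with the chromosome 13 stretch, is among the 3 in each DKO comparison. The median log2 fold changes of the 16 SCAN genes were -0.08 and -0.06 in the DKO comparisons. Zfp369 and Zfp110 encode the p75 neurotrophin receptor interacting factors Nrif2 and Nrif1. Zfp369 had 36.1, 33.8 and 39.4 CPM in DKO, 48.5, 49.8 and 47.0 CPM in Smarca1 KO, against 45.3, 46.4 and 42.5 CPM in WT, falling by -0.41 ± 0.06 relative to Smarca1 KO (edgeR adjusted p = 0.00770) and -0.29 ± 0.06 relative to WT (adjusted p = 0.0194). The first of these calls held without any one library. It was lost without the 2 libraries highest in meninges markers (edgeR adjusted p = 0.0523) and with the Y-linked covariate (adjusted p = 0.295). The second was lost without DKO replicate 2, WT replicate 1 or WT replicate 2 (adjusted p 0.0671 to 0.0792), and with the Y-linked covariate (adjusted p = 0.653). Zfp110 had 27.9, 27.4 and 28.9 CPM in DKO, 32.5, 39.0 and 35.2 CPM in Smarca1 KO, against 34.0, 35.2 and 30.9 CPM in WT, with DKO below both. It fell relative to Smarca1 KO (-0.34 ± 0.08, edgeR adjusted p = 0.0374). That call was lost in 7 of the 9 fits without 1 library (adjusted p 0.0535 to 0.124), all but those without Smarca1 KO replicate 1 or WT replicate 3. Effective-length offsets, the replicate block, the Y-linked covariate and only the 2 groups compared each ended it. So did leaving out the 2 meninges-high libraries. Zfp110 shares 7.51% of its 31-base words, with Zfp369. Zfp24, needed for myelination by mouse oligodendrocytes, had 98.9, 92.7 and 88.0 CPM in DKO, 104.8, 104.3 and 95.2 CPM in Smarca1 KO, against 107.6, 103.9 and 110.7 CPM in WT. Zfp24 fell relative to WT (-0.20 ± 0.06, edgeR adjusted p = 0.0426). That call was lost without any one of DKO replicates 2 and 3 and WT replicates 1, 2 and 3 (adjusted p 0.0838 to 0.142). It was also lost with effective-length offsets or the Y-linked covariate.

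Of 8 KRAB corepressor genes, all tested, 4 fell in DKO relative to WT, where 6.35% of all genes did. None was called in the other comparisons (1 at an unadjusted p under 0.05 for DKO over Smarca1 KO and 3 for Smarca1 KO over WT). Of all 15773 genes, 2905 and 2978 were at that unadjusted p in the same comparisons. For Smarca1 KO over WT, DESeq2 and the fit without the 2 libraries highest in meninges markers called Trim28 lower. Trim28, the corepressor that binds KRAB domains, had 583, 591 and 594 CPM in DKO, 606, 616 and 554 CPM in Smarca1 KO, against 678, 685 and 713 CPM in WT. DKO over WT gave a log2 fold change of -0.23 ± 0.05 (edgeR adjusted p = 0.0149), and Smarca1 KO over WT gave -0.23 ± 0.05, not called (adjusted p = 0.0801). DKO and Smarca1 KO overlapped, and both lay below WT. Setdb1 (-0.14 ± 0.03, adjusted p = 0.0309), its cofactor Atf7ip (-0.20 ± 0.05, adjusted p = 0.0377) and the Trim28-binding remodeller Smarcad1 (-0.15 ± 0.04, adjusted p = 0.0313) fell less than 1.2-fold in DKO relative to WT. Setdb1 spanned 143 to 146 CPM in DKO, 148 to 151 CPM in Smarca1 KO and 156 to 162 CPM in WT. Atf7ip spanned 197 to 220.4 CPM in DKO, 217 to 236 CPM in Smarca1 KO and 233 to 249 CPM in WT. Smarcad1 spanned 132 to 134 CPM in DKO, 139.5 to 147 CPM in Smarca1 KO and 144 to 151 CPM in WT, and for all 3 genes DKO lay below WT without overlap. Each of the 4 calls was lost without any one of DKO replicates 2 and 3 and WT replicates 2 and 3. Those of Setdb1, Atf7ip and Smarcad1 were also lost without WT replicate 1, and that of Atf7ip without DKO replicate 1 (adjusted p 0.0513 to 0.132 over these fits). With effective-length offsets the calls of Setdb1, Atf7ip and Smarcad1 were lost. With no filter or with the replicate block, those of Setdb1 and Smarcad1 were lost. With the Y-linked covariate all 4 were lost.

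Of 14 genes expressed with Zscan4 or Zscan10 in embryos at the two-cell stage or in pluripotent cells, 3 passed the filter and none was called in any comparison (none at an unadjusted p under 0.05). Among 365 tested protein-coding genes named Zfp, 66 fell and 6 rose in DKO relative to WT, beside 6.35% and 5.61% of all genes, and 49 fell and 2 rose relative to Smarca1 KO, beside 2.66% and 1.73%, with medians of -0.08 in both. The members' medians of -0.12 and -0.10 stand beside those values, and whether the members differ from other zinc finger genes was not tested. In bulk tissue, fewer cells that express a gene and less of its RNA per cell cannot be told apart.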

How the data were processed

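Per the submitters' processing notes, reads were quantified with Salmon 1.4.0 and the build was mm10; DESeq2 is also named. The deposited files hold Salmon's estimated counts (expected counts), effective length and TPM for 116546 transcripts per library, as the authors left them, and neither the index nor the strand setting is stated in the sources used here. Estimated counts were summed to GENCODE M21 genes, which matched 115977 transcripts, and rounded. The 569 unmatched transcripts held 0.104% to 0.116% of reads. The libraries were compared with edgeR 4.0.16 (R 4.3.3; TMM, filterByExpr, quasi-likelihood F test over all 9 libraries, 6 residual degrees of freedom), with Benjamini-Hochberg adjustment over 15773 genes and calls at an adjusted p under 0.05. Levels of genes are TMM-scaled CPM. Levels of transcripts are CPM of the library's counts summed over genes, without TMM. Floors and counts cover counting error only. The biological coefficient of variation was 10.2%. The gene test was checked on simulated counts. Alternatives were DESeq2 1.42.0, RLE size factors, no filter, at least 1 CPM in 3 libraries, the 2 groups compared alone, a replicate block, effective-length offsets, a Y-linked covariate, leaving out the 2 libraries highest in meninges markers, and leaving out each library. The fit over 50919 transcripts was added after the values were seen. The text names each member called in any comparison, those with the largest fold changes among the rest, and the called genes of the lists; the pseudogene, AK157302, Nkapl and the transcripts were chosen after their values were seen. The members and lists were chosen with earlier results of these data known. Promoters are RefSeq's (GRCm38.p6), found for 20 members, 15 of them tested. The RefSeq start lies 20111 bases from the GENCODE start in Zkscan17 and 58 bases in Zkscan4. Fingers were counted in coding sequences translated from GENCODE M21, as matches of C, 2 to 4 residues, C, 12 residues, H, 3 to 5 residues, H. Fingers that depart from this pattern were not counted.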

Additional observations from a re-analysis of the deposited data

How the results depend on the processing

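Members called lower in DKO over Smarca1 KO numbered 2, but 4 in DESeq2, 1 without the 2 libraries highest in meninges markers, 0 with only the 2 groups compared, 0 with the Y-linked covariate, and 0 to 4 when 1 library was left out. In DKO over WT, 2 were higher, but 1 with RLE size factors, 1 with no filter, 1 with the replicate block, 0 with effective-length offsets, 0 with the Y-linked covariate, and 0 to 3 without 1 library. The 8 lower became 0 with the Y-linked covariate and 1 to 9 without 1 library. In Smarca1 KO over WT, DESeq2 called 1 higher and 1 lower, and the Y-linked covariate and the fit without the 2 meninges-high libraries each called 1 higher, where edgeR called 0. Over the 18 alternatives the 20 tested members gave 360 fold changes per comparison, of which 17 changed sign in DKO over Smarca1 KO, 6 in DKO over WT and 11 in Smarca1 KO over WT. None of these was a called value, and 11, 5 and 11 of them were smaller than their standard error at the outset. Among the genes whose level in each library or group is given, with a fold change of at least 1 standard error, the sign changes were those of DKO over Smarca1 KO for Zscan2 (-0.12 with the Y-linked covariate), Zscan22 (0.0491 with it), Zscan18 (-0.0414 with it and -0.0373 with effective-length offsets) and Zscan12 (0.0115 without Smarca1 KO replicate 2, lowest -0.18). The cause was not tested. Of the other values of these genes, 841 kept direction and side of the threshold, 144 lost the call and 18 gained one. Correlations of deviations between same-numbered libraries ran from -0.11 to 0.44, not all above 0.1, so the numbers were not taken as pairs. The highest was that of DKO and Smarca1 KO replicate 1, which are also the libraries highest in meninges markers, and whether they share more than a number was not tested. The replicate block gave 2 lower members in DKO over Smarca1 KO, 1 higher and 7 lower in DKO over WT and none in Smarca1 KO over WT. With 3 libraries a group and a spread of 10.2%, changes of several standard errors (0.04 to 0.17, log2) could miss the threshold.
Over all genes, 273 were higher and 419 lower in DKO over Smarca1 KO, 885 and 1002 in DKO over WT, and 22 and 31 in Smarca1 KO over WT. DESeq2 gave 473 and 662, 1345 and 1482, and 252 and 457. The 2 groups alone gave 68 and 113, 1711 and 1732, and 29 and 33. Effective-length offsets gave 146 and 243, 587 and 675, and 17 and 21. The Y-linked covariate gave 4 and 7, 3 and 3, and 18 and 37. Leaving out the 2 meninges-high libraries gave 148 and 250, 1439 and 1358, and 304 and 303. With no filter they were 236 and 353, 851 and 911, and 36 and 54.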

Other observations

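A further gene with a family symbol that is not protein-coding was measured beside the members. The processed pseudogene Zscan30 had 2.53, 2.52 and 1.78 CPM in DKO, 2.68, 2.18 and 1.49 CPM in Smarca1 KO, against 2.69, 2.29 and 2.22 CPM in WT. Its 3 groups overlapped, and it was not called in any comparison. Zscan4a, an unprocessed pseudogene, had 0 counts in all 9 libraries, as did its 8 protein-coding relatives.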
